A study of Mus musculus with 6 samples.

Results

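The collagen genes of the mouse were followed in RNA from pancreatic islets, the clusters of hormone cells in the pancreas, of C57BL/6 mice on a normal or a high fat diet. Members were all protein-coding genes whose symbol is Col, a number, a and a number. 44 such genes were found on 15 chromosomes, each linked to 1 of the 39470 loci counted, and 42 of them passed the filter on low counts, beside 23983 loci in all. The series compared islets of mice with diet-induced obesity with islets of mice fed normally, after 8 weeks of feeding, at 14 weeks of age. There were 3 libraries per diet. No transgene, drug or other treatment is named in the labels. The sources used here do not say whether islets of several animals were pooled, so p-values measure the spread between libraries, which may be partly technical. The count columns name the second diet by the abbreviation HDR, which was read as the high fat diet. Each statement of higher or lower rests on that reading of the names.

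Collagens are the main structural proteins of the extracellular matrix. Their chains carry repeats with glycine at regular steps, wind around each other into helical rods and are assembled from 1 or more kinds of chain. Fibrillar collagens form the ropes of connective tissue, collagen IV forms the sheet-like network of basement membranes, and the fibril-associated, transmembrane and multiplexin collagens bind or link these structures to cells. In mouse islets, basement membranes lie mainly along capillaries, and endothelial cells, pericytes and fibroblast-like stellate cells are known makers of collagen.

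Library totals ran from 104657337 to 135353777 counts. Levels below are CPM, counts scaled to a common library total with TMM, the trimmed mean of M-values. Collagen genes are ranked, and their chains compared, as CPM per kilobase of exon. Sums over genes, shares of such sums and genes named for the most counts rest on CPM without that scaling. The second principal component of all loci set high fat diet library 3 (59.4) apart from libraries 1 and 2 of its diet (-32.3 and -25.5). Its deviation from the mean of all libraries fell with the GC content of the transcripts, with a Spearman's rho of -0.71 across 13165 coding genes and -0.60 across 41 collagen genes. These genes come from the same libraries and are not independent replicates. Collagen transcripts were richer in G and C than coding transcripts in general, with a median GC content of 56.2% against 50.6%. Collagen calls and the collagen median are given with and without this library. Counts of signs and of genes whose diets did not overlap are given with it only.

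Collagen IV dominated the collagen RNA of these islets. Per kilobase, the order of the 12 most abundant tested genes was Col4a1 (37.7), Col4a2 (14.5), Col3a1 (8.86), Col6a6 (6.89), Col13a1 (4.71), Col15a1 (3.19), Col6a1 (3.14), Col9a2 (3.02), Col20a1 (3.00), Col1a2 (2.73), Col16a1 (2.32) and Col27a1 (1.73). Col4a1 lay above Col4a2 in every comparison of libraries (22.0 to 46.4 against 8.07 to 18.9 CPM per kilobase). In the other 10 of the 11 neighbouring pairs in this order, the per-library ranges overlapped. Col1a1, the partner chain of Col1a2 in collagen I, came 18th at 0.683. Col4a1 and Col4a2 together took 41.2% to 52.6% of the summed collagen CPM of a library, not scaled by exon length. The lowest levels among tested genes were those of Col2a1, the cartilage fibril chain, with 5 to 13 counts per library. Col24a1 and Col9a1 were not tested, with 1 to 11 and 1 to 4 counts per library.

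**Figure D1:**
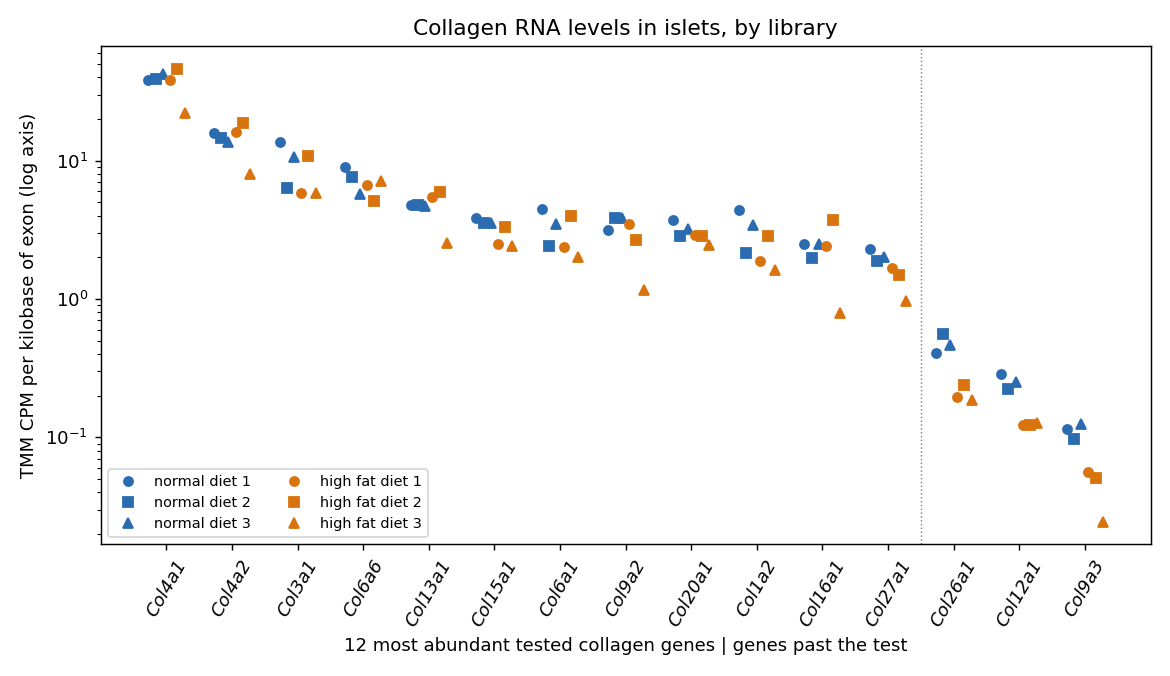
TMM CPM per kilobase of exon (log axis) in each of the 6 libraries for the 12 most abundant tested collagen genes and, right of the dotted line, the genes past the diet test. Col4a1 and Col4a2 lie highest, and for the genes past the test every high fat point lies under every normal diet point.

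On the high fat diet, 3 collagen genes were lower and 0 were higher by edgeR's quasi-likelihood test at an adjusted p under 0.05. The lower genes were Col12a1, Col26a1 and Col9a3, or 7.14% of the 42 tested, where 4.86% of all loci were called lower and 5.95% higher. At an unadjusted p under 0.05, edgeR gave 13 of the 42 collagen genes lower (31%) and 1 of the 42 higher, against 16.4% and 15.4% of all loci. DESeq2 called 5 lower (Col27a1 and Col5a1 beside those 3) and 1 higher, Col19a1, where it called 7.42% of all loci lower and 10.9% higher. At the adjusted threshold, the share of collagen genes that edgeR called lower was thus near that of all loci. At the unadjusted threshold the share lower was larger (31% against 16.4%), though it depended on the libraries kept, as given below. The sign of the fold changes was uneven. Of the 42 genes, 37 (88.1%) had a negative log2 fold change, against 54.5% of all loci, with a median of -0.43 against -0.05. In 10 genes (23.8%) all high fat libraries lay under all normal diet libraries, against 20.4% of all loci, and in 0 of the 42 all lay above, against 18.8%.

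The calls depended on which libraries were kept. Without high fat diet library 3, edgeR called 6 collagen genes lower (Col27a1, Col11a2 and Col28a1 in addition) and 1 higher (Col19a1), where 7.87% and 12.4% of all loci were called. The collagen median log2 fold change was then -0.30, against -0.044 for all loci. In that fit 9 of the 42 collagen genes were lower and 4 higher at an unadjusted p under 0.05 by edgeR. Of 24893 loci, 8969 passed that threshold in either direction. Leaving out normal diet library 1, 2 or 3 left 0 collagen genes and 0 loci called. At an unadjusted p under 0.05 by edgeR, 5, 15 and 10 of the 42 collagen genes were then lower, against 12.1%, 14.9% and 14.9% of all loci. Without high fat diet library 1 or 2 there were also 0 collagen calls, with 9 and 16 of the 42 lower at that unadjusted threshold, against 14.3% and 13.1% of all loci. Col12a1, Col26a1 and Col9a3 kept a negative fold change in 6 of 6 such fits and passed the test in 1 of them.

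**Figure D2:**
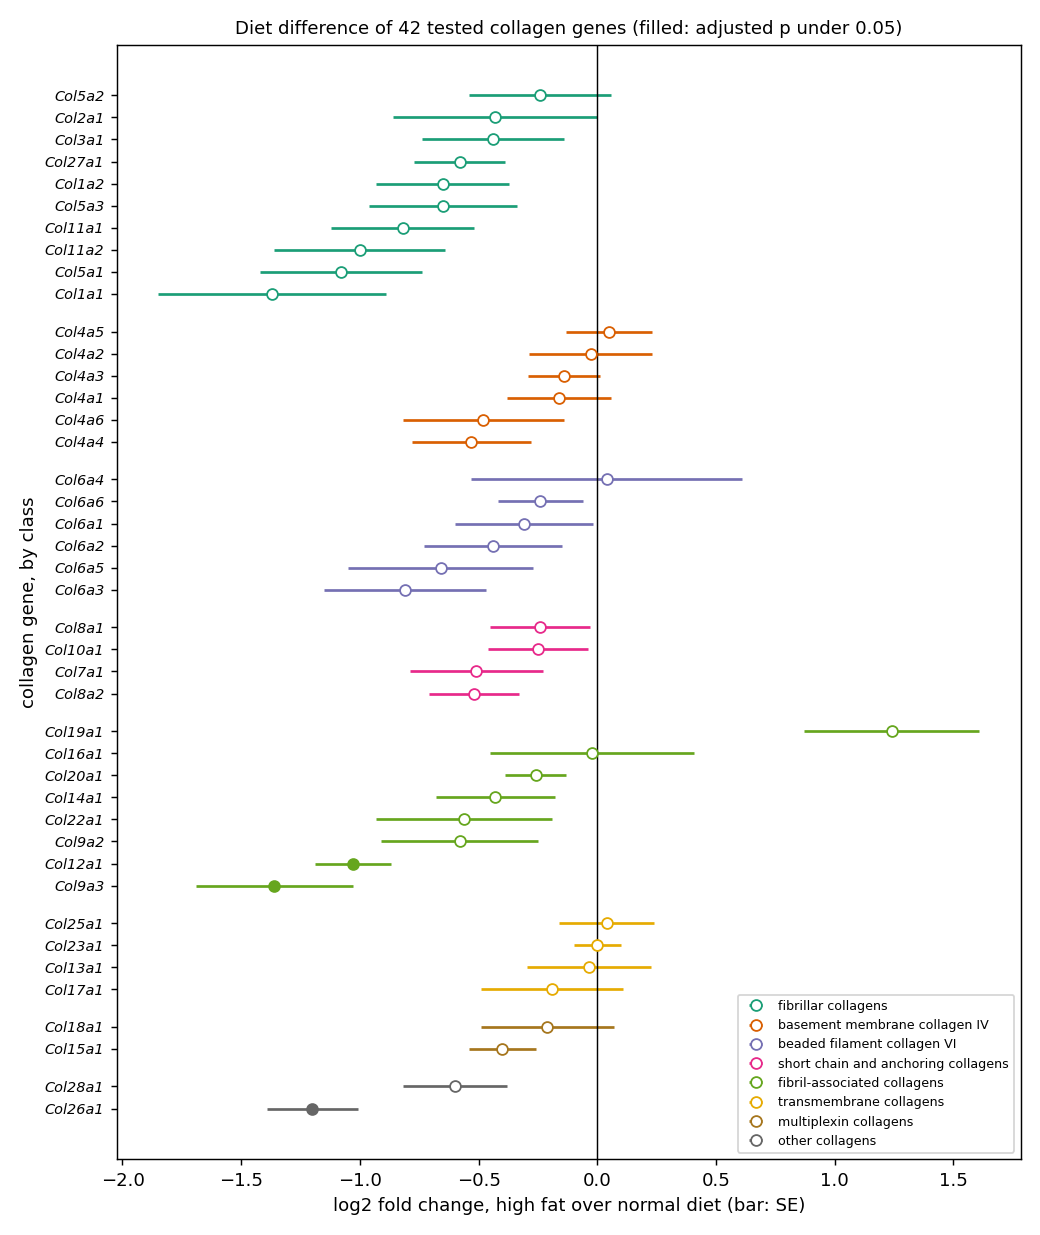
Log2 fold change, high fat over normal diet, with its standard error for the 42 tested collagen genes, grouped by class, with filled symbols for an adjusted p under 0.05 in edgeR. Most points lie left of 0, and the 3 filled ones are Col12a1, Col26a1 and Col9a3.

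Col12a1 encodes a fibril-associated collagen that binds the surface of collagen I fibrils (mm9, chr9:79446798-79566575, minus strand). Its level was 3.42, 2.66 and 2.97 CPM in normal diet libraries 1 to 3 and 1.46, 1.45 and 1.53 CPM in high fat libraries 1 to 3. The groups did not overlap and the high fat libraries lay close together. The log2 fold change was -1.03 (SE 0.16, n = 3 per diet, edgeR adjusted p = 0.019), a level 2.04-fold higher on the normal diet. It rested on 140 to 427 counts per library.

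Col26a1, a little-studied secreted collagen, was at 1.66, 2.27 and 1.91 CPM on the normal diet and at 0.795, 0.984 and 0.763 CPM on the high fat diet (mm9, chr5:137217634-137358977, minus strand). All high fat libraries lay under all normal diet libraries. The log2 fold change was -1.20 (SE 0.19, adjusted p = 0.020 by edgeR), from 90 to 273 counts per library.

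Col9a3 encodes a chain of collagen IX, best known from cartilage (mm9, chr2:180332927-180356890, plus strand). It was at 0.392, 0.337 and 0.428 CPM on the normal diet and 0.194, 0.176 and 0.0848 CPM on the high fat diet, without overlap. Its log2 fold change was -1.36 (SE 0.33, adjusted p = 0.038 by edgeR). The gene is weakly covered, with 11 to 61 counts per library, and 27.6% of its exonic bases are shared with another locus, so part of its reads may belong elsewhere.

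All 10 tested fibrillar collagens, which build the ropes of connective tissue, had a negative log2 fold change, against 54.5% of all loci. The values ran from -1.37 to -0.24 with a median of -0.65, and 0 passed the edgeR test. At an unadjusted p under 0.05 by edgeR, 6 (60%) were lower, against 16.4% of all loci. DESeq2 called 2 of them lower, Col27a1 and Col5a1, where it called 7.42% of all loci lower. Normal diet library 1 was the highest for 9 of the 10 and high fat library 3 the lowest for 9 (90% each, against 25.4% and 23.6% of all loci). Col3a1, the chain of collagen III, was at 109.8, 51.2 and 85.3 CPM on the normal diet and 47.2, 87.4 and 47.0 CPM on the high fat diet. Here high fat library 2 lay above normal diet libraries 2 and 3, so the diets overlapped (log2 fold change -0.44 with an SE of 0.30, adjusted p = 0.35 by edgeR). Col1a2, a chain of collagen I, was at 44.1, 21.6 and 34.7 CPM against 18.7, 28.8 and 16.3 CPM, again with overlap through high fat library 2. Its log2 fold change was -0.65 (SE 0.28, adjusted p = 0.14 by edgeR). Without high fat library 3 the values were -0.28 for Col3a1 and -0.49 for Col1a2. Col27a1 did not overlap, at 27.1, 22.2 and 23.5 CPM against 19.7, 17.5 and 11.3 CPM (log2 fold change -0.58 with an SE of 0.19, adjusted p = 0.079 by edgeR).

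Col1a1 had the largest negative fold change among all tested collagens, -1.37 (SE 0.48), without passing the test (edgeR adjusted p = 0.094). It ran from 2.69 to 7.97 CPM on the normal diet and from 1.03 to 3.54 CPM on the high fat diet, so the spread within each diet was wide. Col5a1 and Col11a2, chains that help to set fibril width, had log2 fold changes of -1.08 (edgeR adjusted p = 0.070) and -1.0 (edgeR adjusted p = 0.10). For the other fibrillar genes, Col5a2, Col5a3, Col11a1 and Col2a1, the edgeR adjusted p lay between 0.10 and 0.61.

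The upstream sequences of the fibrillar chains with the highest levels per kilobase, Col1a2 and Col3a1, are shown because these 2 genes differ in the motifs marked below. Both are the 250 bases before the RefSeq start in GRCm38.p6, 5′ to 3′ on the plus strand, at chr6:4505368-4505617 for Col1a2 and chr1:45311288-45311537 for Col3a1. Capitals mark the CCAAT box, the GC box (letters GGGCGG) or the TATA box (letters TATAAA), each searched on both strands.
Col1a2: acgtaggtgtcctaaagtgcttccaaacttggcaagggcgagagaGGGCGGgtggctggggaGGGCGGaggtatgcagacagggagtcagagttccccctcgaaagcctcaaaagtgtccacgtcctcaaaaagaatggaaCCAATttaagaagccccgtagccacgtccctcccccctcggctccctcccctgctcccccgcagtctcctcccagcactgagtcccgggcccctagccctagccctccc
Col3a1: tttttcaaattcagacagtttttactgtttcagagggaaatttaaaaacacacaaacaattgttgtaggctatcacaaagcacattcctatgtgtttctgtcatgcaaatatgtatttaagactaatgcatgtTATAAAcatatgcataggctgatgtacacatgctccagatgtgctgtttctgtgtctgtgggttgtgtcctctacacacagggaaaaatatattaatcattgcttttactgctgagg
The Col1a2 stretch holds GC boxes and a CCAAT box, 109 bases before the start, but no TATA box. The Col3a1 stretch holds the TATA box letters, 117 bases before the start, but neither of the others. Whether either gene uses these letters was not tested. RefSeq windows of 300 bases (250 before to 50 after a start) were found for 35 of the 44 collagen genes, in 38 windows. The GC box was in 60.5% of the collagen windows and 35.7% of all 32851 windows. The CCAAT box was in 34.2% against 37.4%, and the TATA box in 13.2% against 13.6%. None of these motifs contains another. A match describes letters only, and no binding was measured.

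Collagen IV chains, the network formers of the basement membrane, had a median log2 fold change of -0.15, with 0 of 6 past the edgeR test and 0 of 6 at an unadjusted p under 0.05. Col4a1 (mm9, chr8:11198423-11312826, minus strand) was at 257.5, 264.5 and 283.5 CPM on the normal diet and at 258.2, 312.6 and 148.4 CPM on the high fat diet. Col4a2 (chr8:11312829-11449287, plus strand) was at 101.3, 94.0 and 87.2 CPM against 103.9, 121.4 and 51.8 CPM. For both genes, high fat library 2 was the highest and high fat library 3 the lowest of all 6. Their log2 fold changes were -0.16 (SE 0.22, adjusted p = 0.65 by edgeR) and -0.028 (SE 0.26, adjusted p = 0.95 by edgeR), and turned to 0.094 and 0.26 without high fat library 3.

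The collagen IV genes lie in head-to-head pairs, with adjoining starts and transcription running outward, a known arrangement of this family. In the deposited mm9 transcripts the first bases of Col4a1 and Col4a2 are 3 bases apart, those of Col4a4 and Col4a3 72 apart and those of Col4a6 and Col4a5 1322 apart. The Col4a3, Col4a4, Col4a5 and Col4a6 chains, known from the kidney filter and other specialised membranes, were far less abundant, with 0.0414 (Col4a6) to 0.428 (Col4a5) CPM per kilobase. Their edgeR adjusted p lay between 0.18 and 0.87.

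Collagen VI, which forms beaded filaments near cell surfaces, had a median log2 fold change of -0.37, with 0 of 6 genes past the edgeR test. At an unadjusted p under 0.05 by edgeR, 1 gene was lower, Col6a3 (16.7%, against 16.4% of all loci). Col6a6 was the most abundant chain, at 91.7, 78.2 and 58.2 CPM on the normal diet and 67.9, 52.5 and 73.0 CPM on the high fat diet. The diets overlapped (log2 fold change -0.24 with an SE of 0.18, adjusted p = 0.38 by edgeR). Col6a1 was at 17.9, 9.59 and 13.9 CPM against 9.52, 15.9 and 8.00 CPM, overlapping through high fat library 2 (log2 fold change -0.31 with an SE of 0.29, adjusted p = 0.49 by edgeR). Without high fat library 3 the value of Col6a1 was -0.11. Col6a3 had a log2 fold change of -0.81 (edgeR adjusted p = 0.15), and 19.9% of its exonic bases are shared with another locus. Col6a4 was uneven, from 0.224 to 1.19 CPM, both extremes in high fat libraries.

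Among the 8 tested fibril-associated collagens the median log2 fold change was -0.50, with Col12a1 and Col9a3 called lower by edgeR (25%, against 4.86% of all loci). Col9a2, another chain of collagen IX, was at 8.63, 10.5 and 10.6 CPM on the normal diet and 9.53, 7.30 and 3.19 CPM on the high fat diet. High fat library 1 lay within the normal diet range (log2 fold change -0.58 with an SE of 0.33, adjusted p = 0.26 by edgeR), and without high fat library 3 the value was -0.23. Col20a1 was at 26.7, 20.4 and 23.1 CPM against 20.7, 20.6 and 17.5 CPM (log2 fold change -0.26 with an SE of 0.13, adjusted p = 0.20 by edgeR). Col16a1 was at 14.8, 11.9 and 15 CPM against 14.4, 22.0 and 4.70 CPM, so the high fat libraries held both the highest and the lowest value. Its log2 fold change was -0.023 (SE 0.43, adjusted p = 0.98 by edgeR) and 0.39 without high fat library 3.

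Col19a1 had the largest positive log2 fold change among the 42 tested genes, 1.24 (SE 0.37, adjusted p = 0.063 by edgeR), and the other 4 positive values ran from 0.00038 (Col23a1) to 0.05 (Col4a5). It was at 0.576, 0.274 and 0.316 CPM on the normal diet and 1.20, 1.03 and 0.540 CPM on the high fat diet. High fat library 3 lay under normal diet library 1, and without it the log2 fold change was 1.52 (edgeR adjusted p = 0.011). Col14a1 and Col22a1 had negative fold changes that did not pass, with edgeR adjusted p of 0.26 and 0.32.

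The transmembrane collagens, which stay anchored in the cell membrane, had the smallest difference by class, with a median log2 fold change of -0.017 over 4 genes and 0 past the edgeR test or at an unadjusted p under 0.05. Col13a1 was at 20.6, 20.7 and 20.3 CPM on the normal diet and 23.5, 25.7 and 11.1 CPM on the high fat diet (log2 fold change -0.034 with an SE of 0.26, adjusted p = 0.94 by edgeR). High fat libraries 1 and 2 lay above and library 3 below all normal diet libraries. Without library 3 the log2 fold change of Col13a1 was 0.26. Col23a1 ran from 15.1 to 16.2 CPM, but its locus also holds Phykpl, and the reads of these 2 genes cannot be told apart.

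Both multiplexins, basement membrane collagens that carry sugar chains, were highest in normal diet library 1 and lowest in high fat library 3. Of all loci, 25.4% were highest in that normal diet library and 23.6% lowest in that high fat library. Col15a1 was at 20.5, 18.7 and 18.8 CPM on the normal diet and 13.4, 17.7 and 12.8 CPM on the high fat diet, without overlap (log2 fold change -0.40 with an SE of 0.14, adjusted p = 0.089 by edgeR). Col18a1 overlapped (log2 fold change -0.21, edgeR adjusted p = 0.63). The 4 short chain and anchoring collagens, Col7a1, Col8a1, Col8a2 and Col10a1, had log2 fold changes from -0.52 to -0.24 with 0 past the edgeR test. At an unadjusted p under 0.05 by edgeR, 1 of them (25%) was lower, against 16.4% of all loci. In 3 of these 4 (75%) all high fat libraries lay under all normal diet libraries, against 20.4% of all loci. Col28a1 did not overlap either, at 4.76 to 5.98 CPM against 2.48 to 4.69 CPM (log2 fold change -0.60, edgeR adjusted p = 0.11).

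The libraries did not share the difference evenly. Normal diet library 1 was the highest of the 6 for 24 of the 42 tested collagen genes (57.1%, against 25.4% of all loci), and high fat library 3 the lowest for 24 (57.1%, against 23.6%). Summed over the 44 genes, collagen RNA was 870.9, 719.7 and 789.5 CPM on the normal diet and 687.9, 830.4 and 474.6 CPM on the high fat diet. The sums overlapped, high fat library 2 lying above normal diet libraries 2 and 3.

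**Figure D3:**
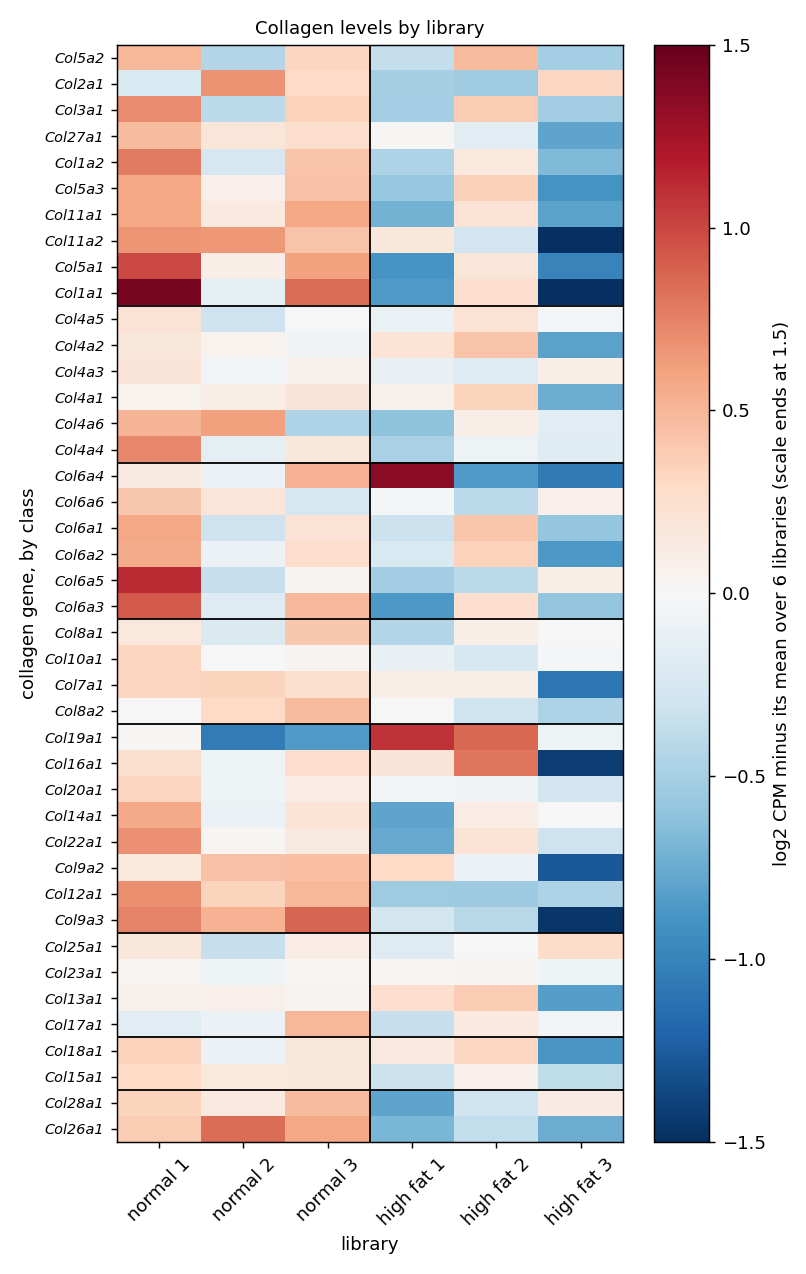
Log2 CPM of each tested collagen gene in each library minus its mean over the 6 libraries, by class, with red for higher and blue for lower. Normal diet library 1 is the highest for 24 of 42 genes and high fat library 3 the lowest for 24.

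High fat library 3 was the lowest of the 6 for 19 of 22 collagen genes with a transcript GC content over 55% (86.4%, against 67.9% of coding genes over that limit). It was the lowest for 5 of the 19 collagen genes up to 55% (26.3%, against 11.0% of coding genes). These 5 are Col3a1, Col1a2, Col5a2, Col11a1 and Col6a4. Among the 22 GC-rich collagens, the median log2 ratio of this library to the mean of the other 2 high fat libraries was -0.77, against -0.45 for 3388 such coding genes. Among the 19 collagen genes up to 55% it was 0.067, against 0.085 for 9777 coding genes. The median diet difference of the collagens was -0.47 over 55% and -0.43 up to 55%, where that of coding genes was -0.14 and 0.13. Fitted over coding loci with a GC value, without a GC trend, edgeR called 2 collagen genes lower (Col12a1 and Col26a1) and 0 higher. Of these loci, 2.24% were called lower and 3.47% higher. The collagen median of that fit was -0.51, against 0.00049 for these loci. With a GC trend per library taken out, edgeR called 5 collagen genes lower and 0 higher (Col11a2 and Col28a1 beside Col12a1, Col26a1 and Col9a3), where 3.62% of coding loci were lower and 10.8% higher. In that fit 11 of the 41 collagen genes were lower and 1 of the 41 higher at an unadjusted p under 0.05, against 10.5% and 23% of coding loci. The collagen median was then -0.33, against 0.058 for coding loci.

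**Figure D4:**
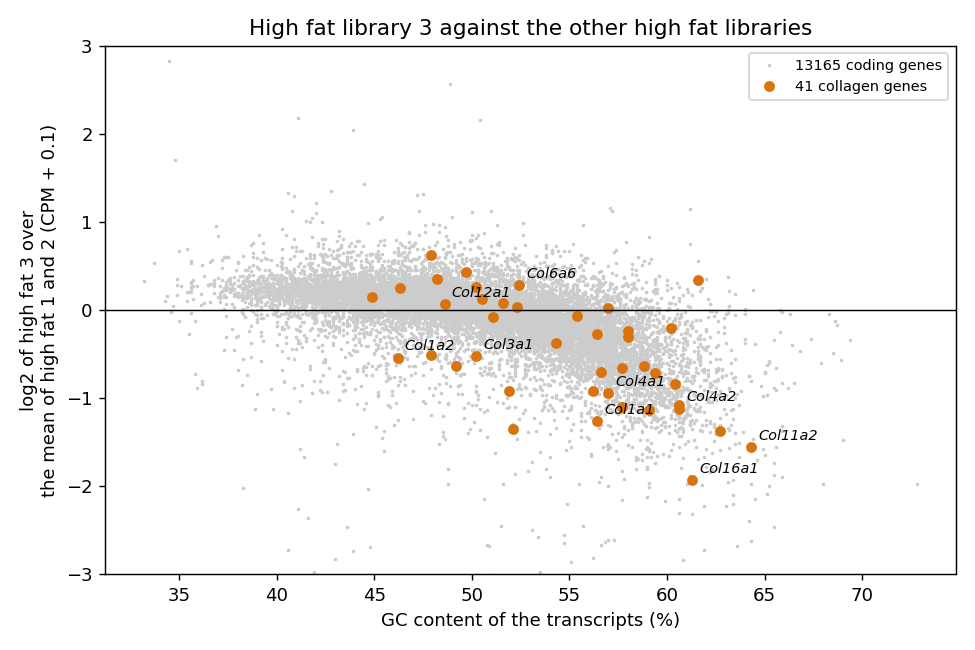
Log2 ratio of high fat library 3 to the mean of high fat libraries 1 and 2 (CPM plus 0.1) against the GC content of the transcripts, for 13165 coding genes in grey and 41 collagen genes in orange; 14 coding genes lie outside the axis limits. GC-rich collagens such as Col16a1 and Col11a2 lie well under 0, and Col12a1 with a GC content of 48.6% does not.

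Chains of the same collagen type, and Col3a1 with Col1a2, were compared as ratios of CPM per kilobase, as a description with no test. No such ratios were taken for other gene pairs, so the share without overlap among them is not known. Col1a1 over Col1a2 was 0.334, 0.230 and 0.283 on the normal diet and 0.163, 0.227 and 0.116 on the high fat diet, lower without overlap though by little in high fat library 2. Col5a1 over Col5a2 was 0.312, 0.323 and 0.267 against 0.153, 0.180 and 0.159, with the high fat libraries well apart from the normal ones. Col6a3 over Col6a1 was lower too, with means of 0.0622 and 0.0449.

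Col3a1 over Col1a2, a ratio of collagen III to collagen I, was higher on the high fat diet, at 3.13, 3.77 and 3.59 against 3.09, 2.95 and 3.06. Col9a2 over Col9a3 was higher as well, with means of 32.7 on the normal and 53.6 on the high fat diet. Col9a3 was itself called lower and rests on 11 to 61 counts per library, so this ratio is not a separate result. Col4a1 over Col4a2 overlapped, between 2.37 and 3.10 in all 6 libraries. The remaining 5 of the 11 pairs overlapped. Each ratio depends on the exon lengths in the deposited transcripts, which can include retained sequence, and this bears on its level more than on its difference between libraries. The ratios were not adjusted for GC content, with which high fat library 3 deviated. GC content was 56.4% for Col1a1 and 46.2% for Col1a2, and 56.6% for Col5a1 and 49.2% for Col5a2. Its part in the ratio differences was not tested.

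**Figure D5:**
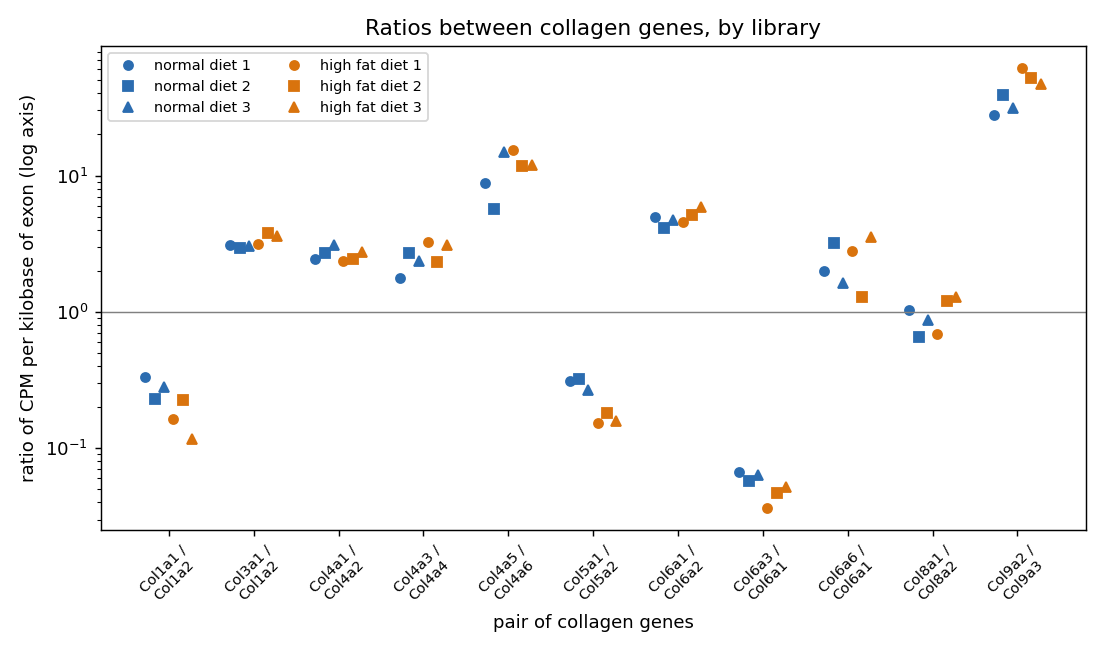
Ratio of CPM per kilobase for 11 pairs of collagen genes in each library (log axis), with a line at 1. Col1a1 over Col1a2, Col5a1 over Col5a2 and Col6a3 over Col6a1 are lower in all high fat libraries, and Col4a1 over Col4a2 stays between 2.37 and 3.10.

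Of 16 tested enzymes and chaperones that fold and hydroxylate collagen chains, 3 (18.8%) rose and 0 fell by the edgeR test. Of all loci, 5.95% were called higher and 4.86% lower. The log2 fold change was positive for 11 and negative for 5, with a median of 0.20. P4ha1, a catalytic subunit of prolyl 4-hydroxylase, went from 170.2, 187.8 and 187.9 CPM to 279.0, 237.7 and 227.0 CPM (log2 fold change 0.45 with an SE of 0.097, adjusted p = 0.031 by edgeR). P4hb, its partner subunit, which is also a general disulphide isomerase, had a log2 fold change of 0.49 (SE 0.13, adjusted p = 0.045 by edgeR). P3h2, a prolyl 3-hydroxylase known to act on collagen IV, went from 3.56 to 4.28 CPM up to 7.29 to 9.47 CPM (log2 fold change 1.10 with an SE of 0.15, adjusted p = 0.016 by edgeR). P4ha1 and P4hb passed in 1 of the 6 fits that leave out a library, the one without high fat library 3, and P3h2 in 2 of them.

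Of 13 procollagen cleavage and crosslinking genes 0 passed the edgeR test, with a median log2 fold change of -0.45. For each list here, the matching shares of all loci were 5.95% called higher and 4.86% called lower. Those with the most counts were Bmp1, which trims the ends of fibrillar procollagens, at 0.38 (edgeR adjusted p = 0.15), and the lysyl oxidase Loxl2 at 0.021. Among 11 receptors, Itgb1, the shared beta chain of collagen-binding integrins, rose (log2 fold change 0.38, edgeR adjusted p = 0.029). Itga2, an alpha chain that binds collagen, fell (-0.99, edgeR adjusted p = 0.032), and Ddr1 did not pass (-0.34, edgeR adjusted p = 0.39). Among 12 genes of degradation, the protease inhibitors Timp1 (-1.13, edgeR adjusted p = 0.036) and Timp4 (-0.81, edgeR adjusted p = 0.044) fell and 0 rose, while Timp2 (0.059, edgeR adjusted p = 0.75) and Timp3 (0.17, edgeR adjusted p = 0.39) did not pass. Of 19 other basement membrane genes Smoc1 rose (1.03, edgeR adjusted p = 0.020) and 0 fell. Of 18 other matrix genes Thbs1 rose (0.44, edgeR adjusted p = 0.049) and Tnc fell (-1.02, edgeR adjusted p = 0.035). The shares called higher in these lists, 5.26% and 5.56%, and the 5.56% of other matrix genes called lower were near those of all loci. The log2 fold change was negative for 15 of the 19 basement membrane genes (median -0.19) and 13 of the 18 matrix genes (median -0.32). It was negative for 10 of the 13 cleavage and crosslinking genes, 8 of the 11 receptors and 9 of the 12 degradation genes. Of all loci, 54.5% had a negative value. Of 16 genes of TGF-beta signalling, a known inducer of collagen genes, 0 passed and 8 had a negative log2 fold change, and Tgfbr1 was at 0.043.

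In whole islets, fewer cells of a type and less RNA per cell cannot be told apart. Marker calls below are by edgeR at an adjusted p under 0.05, which called 5.95% of all loci higher and 4.86% lower. Islet endocrine markers were abundant in every library, with sums of 112774 to 173280 CPM, and 5 of 13 were higher and 1 lower on the high fat diet. Fibroblast and stellate markers, with 2 of 14 lower (Thy1 and Reln) and 0 higher, summed to 77.3 to 86.5 CPM on the normal diet and 53.0 to 74.4 CPM on the high fat diet, without overlap. Pericyte and smooth muscle markers summed to 290.0 to 299.5 CPM against 402.1 to 476.1 CPM, with 3 of 11 higher (Rgs5, Acta2 and Tagln) and 0 lower. Rgs5 made up most of that sum, and the other 10 markers overlapped, at 55.6 to 69.4 CPM against 55.5 to 76.7 CPM. The log2 fold change was negative for 4 of the 11 (Cspg4, Kcnj8, Cnn1 and Notch3), none of which passed. Endothelial markers overlapped, at 498.2 to 572.9 CPM against 502.4 to 617.0 CPM, with 0 of 12 called. Schwann cell markers had 3 of 8 lower (Sox10, Ngfr and Gfap), and their sums of 32.8 to 36.7 CPM against 22.2 to 30.3 CPM did not overlap. Acinar markers, from exocrine tissue, ran from 2765 to 5372 CPM and from 4028 to 8662 CPM, with 1 of 12 higher (Try5). Duct markers had 0 of 6 called, myeloid markers 1 of 8 lower (Csf1r), and adipocyte markers 1 of 2 tested higher (Fabp4), with 2 of the 6 measured at 0 in every library. The part of these cell types in the collagen differences was not tested.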

How the data were processed

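Total RNA of islets, depleted of ribosomal RNA, was sequenced with a stranded Illumina kit, per the labels' protocols. The submitters' processing notes list mm9, edgeR, HTSeq 0.5.4p3, Cufflinks 2.1.1 and TopHat2 2.0.8. Settings are not given in the sources used here. The authors deposited raw counts for 39470 loci and transcripts without gene symbols. Loci were linked to GENCODE M21 (GRCm38) genes by ordered exon and intron lengths. Of the 44 collagens 40 matched a full chain and 4 (Col23a1, Col4a4, Col4a5, Col6a5) a partial one. No coordinates were converted.

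Counts were tested with edgeR 4.0.16 (R 4.3.3; TMM, filterByExpr, quasi-likelihood, two-sided, Benjamini-Hochberg over 23983 loci) and, as alternatives, with DESeq2 1.42.0 and limma 3.58.1. The procedure was run on simulated counts with known changes. These were drawn with no GC trend and no outlying library, so that check does not bear on either. The members and lists were chosen with earlier results of these data known. The 2 GC alternatives, the 55% GC limit, the chain pairs and the promoters shown were chosen after the data were seen. Named are collagens past the threshold, the 12 most abundant per kilobase and, of the other lists, up to 4 genes past the threshold and the 2 with the most counts. Col19a1 and the other collagens given singly fall outside that rule and were chosen after their values were seen. At 104657337 to 135353777 counts per library, depth limits mainly weak genes such as Col9a3.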

Additional observations from a re-analysis of the deposited data

How the results depend on the processing

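With RLE scaling, no filter on low counts, at most 10% of exonic bases shared, or coding loci with a GC value, edgeR called 0 collagen genes higher and 2 or 3 lower; cyclic loess with limma gave 0 and 2. Summing linked loci changed nothing, since each gene has 1 locus. DESeq2 gave 1 higher and 5 lower, and 2433 loci higher and 1650 lower. The GC-adjusted fit gave 5 collagen genes lower. Cyclic loess with limma called 249 loci higher and 232 lower. Deviations of same-numbered libraries from their diet means correlated at -0.075, 0.075 and -0.014, within the -0.16 to 0.15 of differently numbered ones. These values cannot settle whether same-numbered libraries were handled together, as the deviations within a diet are not independent. With the replicate block 0 collagen genes were lower, 54 loci higher and 20 lower. Leaving out 1 library gave 0 to 1 collagen genes higher and 0 to 6 lower, and 0 to 3075 loci higher and 0 to 1960 lower. The collagen median ran from -0.59 to -0.28 over all these settings, where the median over all loci of a fit ran from -0.13 to 0.058. The cause of these differences was not tested.

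Each named gene was refitted under 13 settings, except that Col23a1 and Emilin1 lack 2 of them each. In all, 39 of 544 values for 42 collagens and 31 of 635 for 49 other genes changed sign, none of them for a gene past the threshold in edgeR's fit of all 6 libraries. In DESeq2 the changed values were 0.016 (Col4a2), 0.0094 (Col13a1) and 0.023 (Col16a1). Without the filter Col23a1 was at -0.0088, and with the replicate block Col6a4 was at -0.30. Cyclic loess with limma gave -0.035 (Col23a1), 0.062 (Col10a1), -0.06 (Col6a4), 0.21 (Col17a1), 0.065 (Col2a1), -0.14 (Loxl2), -0.047 (Lamc1), -0.18 (Emilin1), -0.17 (Tgfbr1), -0.037 (Smad4), -0.15 (Kdr), -0.11 (Flt1) and 0.22 (Cidec). Over coding loci with a GC value they were -0.019 (Col4a5), -0.027 (Col25a1), -0.012 (Col6a4), -0.046 (Loxl2), -0.0078 (Timp2), -0.0063 (Lamc1), -0.024 (Tgfbr1), -0.014 (Kdr) and -0.022 (Flt1). The GC-adjusted fit gave 0.23 (Col4a2), 0.17 (Col13a1), 0.18 (Col16a1), 0.043 (Col18a1), -0.05 (Col25a1), 0.0089 (Col17a1), -0.042 (Lamc1), -0.09 (Tgfbr1), -0.026 (Kdr) and -0.014 (Flt1).

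Leaving out 1 library in turn, the log2 fold change ranged from -0.24 to 0.26 for Col13a1, -0.54 to 0.39 for Col16a1, -0.33 to 0.034 for Col17a1, -0.43 to 0.078 for Col18a1, -0.05 to 0.033 for Col23a1 and -0.13 to 0.15 for Col25a1. It ranged from -0.39 to 0.094 for Col4a1, -0.27 to 0.26 for Col4a2, -0.099 to 0.16 for Col4a5 and -1.17 to 0.44 for Col6a4. Outside the collagens it ranged from -0.042 to 0.55 for Emilin1, -0.075 to 0.14 for Flt1, -0.089 to 0.19 for Kdr, -0.016 to 0.12 for Lamc1, -0.10 to 0.15 for Loxl2, -0.076 to 0.12 for Tgfbr1 and -0.001 to 0.12 for Timp2.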
